A study of Homo sapiens with 6 samples.

Results

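Alpha and beta tubulin genes were read from the 1 comparison of this series, MDA-MB-231 cells given shikonin against untreated MDA-MB-231 cells. The members were 10 genes chosen by symbol, 4 alpha tubulins (TUBA1A, TUBA1B, TUBA1C and TUBA4A) and 6 beta tubulins (TUBB, TUBB2A, TUBB2B, TUBB3, TUBB4B and TUBB6). Of these, 8 had a row among the 7150 genes of the authors' deposited table, all 4 alpha and 4 of the 6 beta genes. MDA-MB-231 is an established human line of triple-negative breast cancer, labelled WT in both groups. Shikonin is a naphthoquinone plant pigment. The treated group was 3 libraries from cells given 0.5 µM for 24 h, a dose printed in the labels with µm and taken here as micromolar. The control group was 3 libraries from cells with no treatment, and the sources used here give no vehicle. The labels do not state whether libraries of a group are separate cultures, so p-values reflect the spread between these libraries, which may be technical.

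The deposited table holds 0 columns of values per library, so no value per sample can be shown and library depth is unknown. It gives each gene's mean normalized count over all libraries, a log2 fold change with its standard error, and an adjusted p. A row is present where the adjusted p was below 0.05 and the fold exceeded 1.5. A gene without a row missed at least 1 of these thresholds or was not tested, and "listed" below means past both. The header names no numerator, and positive fold changes, which the authors mark "up", were taken as higher in shikonin. From the adjusted p-values about 14254 genes were tested, and 25.5% of them were listed as higher and 24.7% as lower, 50.2% in all. VIM, the mesenchymal intermediate filament gene, was listed as higher, with a mean normalized count of 64429 per the authors' deposited table. FN1, the fibronectin gene, and the receptor gene ERBB2 were listed as lower, with mean normalized counts of 7451 and 1632 per the authors' deposited table. EPCAM, an epithelial adhesion gene, was listed as higher from a low mean of 127 per the authors' deposited table, while CD44, ESR1, PGR and CDH1 had no row, so their levels cannot be read.

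Microtubules are hollow polymers of tubulin, a pair of one alpha and one beta subunit. They form the mitotic spindle and the tracks for intracellular transport. Human cells carry several genes, called isotypes, for each subunit, which encode closely related proteins that differ most in their acidic tails. Cells also control tubulin messages by a feedback loop: when free tubulin is abundant, the factor TTC5 recognises the first residues of the nascent tubulin chain on the ribosome, and the message is degraded. Beta tubulin is the target of several drugs used against breast cancer, and raised TUBB3 is known from tumours resistant to taxanes.

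The start of the coding sequence is shown because it encodes the residues that the feedback loop reads. The first 30 bases of the coding sequence, 5′ to 3′, were taken from the principal GENCODE 29 transcripts, with the start codon and the codons after it (4 codons in all) in capitals.
TUBA1A: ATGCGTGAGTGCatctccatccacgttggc
TUBA1B: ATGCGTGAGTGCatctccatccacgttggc
TUBA4A: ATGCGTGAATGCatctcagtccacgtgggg
TUBB: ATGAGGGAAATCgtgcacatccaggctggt
TUBB2A: ATGCGCGAGATCgtgcacatccaggcgggc
TUBB2B: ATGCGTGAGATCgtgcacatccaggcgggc
TUBB3: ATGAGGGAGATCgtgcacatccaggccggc
TUBG1: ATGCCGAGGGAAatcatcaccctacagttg
The first 30 bases were the same in TUBA1A, TUBA1B and TUBA1C. Every alpha and beta gene opened with a start codon followed by an arginine codon, spelled CGT, CGC or AGG. TUBG1, a gamma tubulin gene shown for contrast, did not have this order. The last 60 coding bases before the stop codon, which encode the tail, are shown for 3 beta genes because they show how closely some members resemble each other.
TUBB2A: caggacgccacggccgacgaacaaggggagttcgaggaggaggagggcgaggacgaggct
TUBB2B: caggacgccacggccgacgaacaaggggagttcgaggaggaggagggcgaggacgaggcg
TUBB4B: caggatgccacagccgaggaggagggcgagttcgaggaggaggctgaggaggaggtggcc
TUBB2A and TUBB2B matched at 98.3% over these 60 bases, and TUBB2A and TUBB4B at 76.7%, against 98.2% and 87.3% over the whole coding sequence. Over all 21 pairs within a class, coding identity ran from 80.9% to 98.2% with a median of 86.0%, while alpha and beta genes matched at 53.3% to 55.8%.

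All 8 listed tubulin genes were higher in shikonin-treated cells, by 1.57-fold to 3.23-fold per the authors' deposited table. That is 80% of the 10 members, where 25.5% of all tested genes were listed as higher. No member was listed as lower (24.7% of all tested genes were). TUBB2A and TUBA4A had the largest differences, and TUBB4B the smallest among the listed members per the authors' deposited table. The median log2 fold change of the 8 was 1.18 per the authors' deposited table, close to the 1.22 over all 3630 genes listed as higher. All 8 had a mean of at least 100 normalized counts (19.7% of all tested genes were listed as higher at such a mean) and an adjusted p below 0.001 (20.5%). TUBB3 and TUBB6 had no row under either symbol or identifier.

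Of the alpha genes, TUBA4A had the largest difference. TUBA4A, an isotype known for its expression in platelets and muscle, lies on chromosome 2 from 219249711 to 219278170 (GRCh38, GENCODE 29; 4 exons in the principal transcript). The authors' deposited table gave it a mean normalized count of 2129 and a log2 fold change of 1.59 ± 0.14 (standard error), which is 3.01-fold (95% interval 2.47 to 3.65), with an adjusted p of 5.34e-27. The implied mean, solved from the overall mean and the fold, was 1063 normalized counts in control and 3196 in shikonin. TUBA4A overlaps STK16, a kinase gene on the opposite strand that was itself 1.89-fold higher (1.502 to 2.39) per the authors' deposited table, and 25.6% of the 100-base windows of TUBA4A lie in STK16 transcripts too. Whether strand was kept is not stated in these sources, and the part of STK16 reads in the TUBA4A value was not tested.

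TUBA1A, TUBA1B and TUBA1C stand together on chromosome 12. TUBA1B, the general alpha tubulin of dividing cells (49127782 to 49131397), rose from an implied mean of 27847 normalized counts to 64159. Its fold was 2.30 (1.97 to 2.69; log2 1.20 ± 0.11, adjusted p = 2.00e-24) per the authors' deposited table. TUBA1A, the main alpha isotype of developing neurons (49184796 to 49189324), went from 2293 to 5790, or 2.53-fold (2.10 to 3.04; adjusted p = 3.54e-21) per the authors' deposited table. TUBA1C (49188736 to 49274603), also widely expressed, had a smaller difference, 18007 to 31468 or 1.75-fold (1.48 to 2.06; adjusted p = 1.51e-10) per the authors' deposited table. The rise of TUBA1B exceeded that of its neighbour TUBA1C by 0.40 on the log2 scale (95% interval 0.07 to 0.72, errors taken as independent). That of TUBA1A exceeded TUBA1C by 0.53 (0.17 to 0.89).

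Among the beta genes TUBB2A stood out. TUBB2A, a class II beta tubulin gene on chromosome 6 (3153669 to 3157526), went from an implied 3062 normalized counts to 9877 in shikonin. This was a log2 fold change of 1.69 ± 0.14, or 3.23-fold (2.66 to 3.91), with an adjusted p of 4.03e-31, the smallest of the members per the authors' deposited table. TUBB2B, its close copy on the same chromosome (3224261 to 3231730), was far lower in level, 103 to 229, and 2.23-fold higher (1.55 to 3.19; adjusted p = 3.99e-05) per the authors' deposited table. TUBB2A and TUBB2B shared 814 of their 100-base windows, 54.4% of those of TUBB2A and 42.4% of those of TUBB2B, so the split of reads between them is uncertain.

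The abundant beta genes rose less. TUBB, the main beta tubulin of most dividing cells (chromosome 6, 30720201 to 30725426), went from an implied mean of 33075 normalized counts to 55983. Its fold was 1.69 (1.43 to 2.00; log2 0.76 ± 0.12, adjusted p = 2.94e-09) per the authors' deposited table. TUBB4B, another widely expressed isotype (chromosome 9, 137241213 to 137243707), went from 19419 to 30441, or 1.57-fold (1.34 to 1.84; adjusted p = 1.23e-07) per the authors' deposited table. Its fold was the closest of the members to the listing threshold. TUBB3, the neuronal class III gene (chromosome 16, 89921392 to 89938761), and TUBB6, the class V gene (chromosome 18, 12307669 to 12344320), were not listed. Of the 100-base windows of TUBB3, 89.0% also lie in the readthrough gene AC092143.1, which had no row either, whereas TUBB6 shared 0 windows with another gene.

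**Figure D1:**
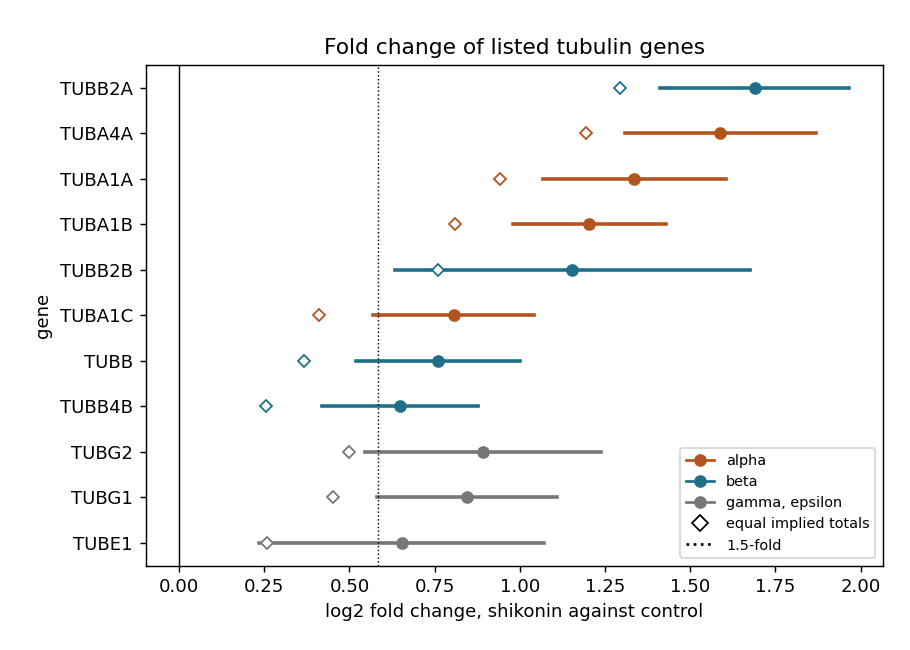
Log2 fold change (x axis) of the 8 listed alpha and beta tubulin genes and of TUBG1, TUBG2 and TUBE1, with 95% intervals from the listed standard error (bars) and the value with equal implied totals (open diamonds). The 5 genes from TUBB2A to TUBB2B lie wholly to the right of the dotted 1.5-fold line, and the intervals of TUBA1C, TUBB and TUBB4B cross it.

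The listed members differed among themselves in fold change. In order of fold change per the authors' deposited table they ran TUBB2A, TUBA4A, TUBA1A, TUBA1B, TUBB2B, TUBA1C, TUBB and TUBB4B. Each of TUBB2A, TUBA4A, TUBA1A and TUBA1B exceeded each of TUBA1C, TUBB and TUBB4B with a 95% interval of the difference above 0, the smallest difference being that of TUBA1B over TUBA1C at 0.40 (0.07 to 0.72) on the log2 scale. Among TUBA1C, TUBB and TUBB4B no pair had such an interval. Over all 28 pairs 14 had one, and none of the 7 pairs of neighbours in the order did. TUBB2A exceeded TUBB by 0.93 (0.56 to 1.30) and TUBB4B by 1.04 (0.68 to 1.40) on the log2 scale. TUBA4A exceeded TUBA1B by 0.38 (0.02 to 0.74). TUBB2B, with a standard error of 0.27 per the authors' deposited table, had an interval that included 0 against each of the other 7, so its place in the order is not resolved. These intervals take the errors of both genes as independent, although the genes share libraries and some share reads. They are not adjusted for the 28 pairs or for ordering the genes by the same fold changes, so those close to 0 are weak. The same 5 genes, TUBB2A, TUBA4A, TUBA1A, TUBA1B and TUBB2B, were at least 2-fold higher (16.4% of all tested genes were), had intervals wholly beyond 1.5-fold, and stayed past 1.5-fold when the implied totals of all listed genes were set equal in both groups (16.8%). TUBA1C, TUBB and TUBB4B did not: with equal implied totals, a shift of 0.39, their log2 fold changes were 0.41, 0.37 and 0.25. These criteria all read the same fold changes, and the shift puts the equal-totals cutoff close to 2-fold. Their agreement is therefore no separate support for the grouping.

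Levels can be compared between genes only per length of transcript, and their spread over libraries is not held. In control, TUBA1B had the highest level, with 17116 implied normalized counts per kb of its principal transcript. TUBB followed with 12388 and TUBB4B with 11863. TUBA1C had 6000 per kb of its 3001-nt principal transcript, or 10623 per kb of the 1695-nt transcript with the longest coding sequence, so its level depends on the transcript chosen. TUBB2A had 1920 per kb, TUBA1A 1197, TUBA4A 492 and TUBB2B 51.0. In shikonin the order was the same, from 39434 per kb for TUBA1B to 114 for TUBB2B. TUBA1B and TUBB stood above 99.7% of listed genes in mean normalized count, and TUBB2B above 22.6%.

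**Figure D2:**
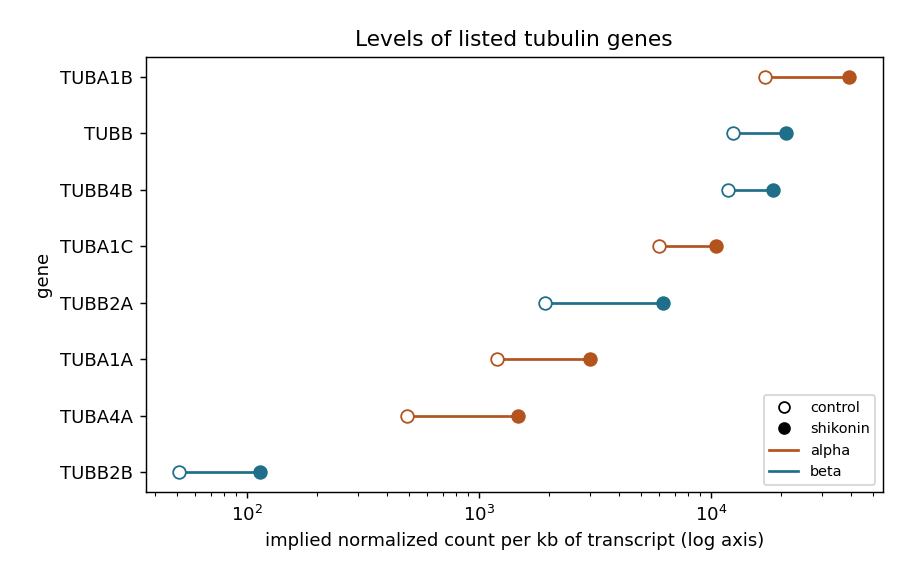
Implied mean normalized count per kb of principal transcript (x axis, log scale) of each listed tubulin gene in control (open circles) and shikonin (filled circles), with no error, since values per library are not held. Every filled circle lies to the right of its open one, and the longest lines are those of TUBB2A and TUBA4A.

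TUBB2A made up a larger share of the listed beta messages in shikonin than in control. Among the listed beta genes, TUBB2A made up 7.32% of the summed level per kb in control and 13.5% in shikonin, while TUBB4B made up 45.2% and 40.5% and TUBB 47.2% and 45.7%. Among the alpha genes, TUBA1B made up 69.0% and 72.5%, TUBA1C 24.2% and 19.3%, TUBA1A 4.83% and 5.56%, and TUBA4A 1.98% and 2.72%. With the shorter TUBA1C transcript, the TUBA1B shares were 58.2% and 63.1% and those of TUBA1C 36.1% and 29.7%. The summed level per kb was 2.19-fold higher for the alpha genes and 1.75-fold higher for the listed beta genes. The ratio of alpha to beta therefore went from 0.946 to 1.19, or from 1.12 to 1.36 with the shorter TUBA1C transcript. TUBB3 and TUBB6 are missing from the beta sum, and these shares and sums have no error and no test.

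**Figure D3:**
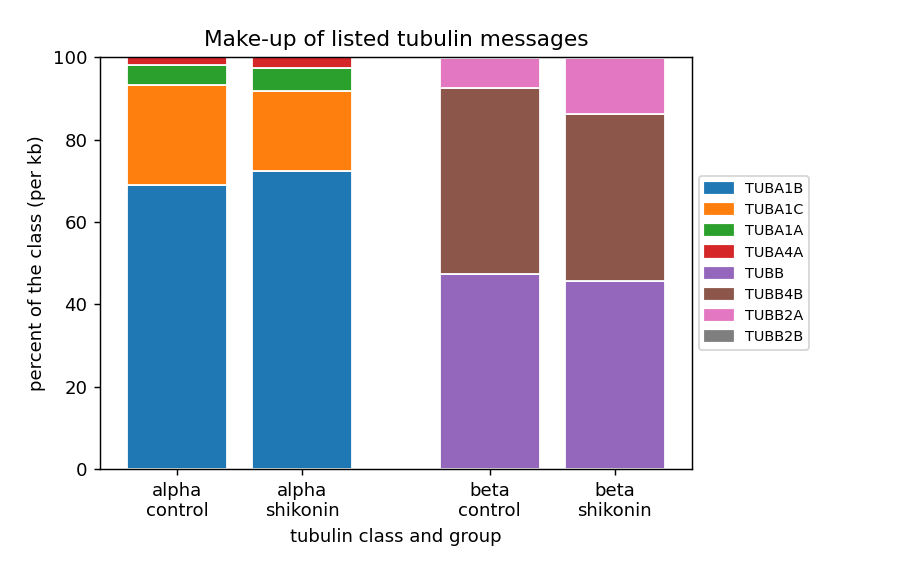
Percent of the summed level per kb (y axis) that each listed isotype makes up within the alpha and beta classes, in control and shikonin, from implied group means. The TUBB2A band widens from 7.32% to 13.5%, and TUBB2B is too rare to see.

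Transcript length moved with the result. Across the listed protein-coding genes short transcripts were mostly higher and long ones mostly lower, and the tubulin messages are short. The principal transcripts of the 8 genes span 1595 to 3001 nt. In the third decile of length (1559 to 1966 nt, 688 genes) 91.3% of listed genes were higher, in the fourth (1967 to 2512 nt) 81.7%, and in the fifth (2512 to 3300 nt) 63.5%. Within its decile, TUBB2A had a larger log2 fold change than 81.4% of listed genes and TUBA4A than 81.4%. TUBA1A stood at percentile 71.1, TUBB2B at 65.6 and TUBA1B at 64.2. TUBA1C and TUBB stood near the middle, at 54.8 and 50.6, and TUBB4B low, at 15.3. Less the decile median, the log2 fold change was 0.69 for TUBB2A, 0.65 for TUBA4A, 0.20 for TUBA1B, 0.01 for TUBB and -0.35 for TUBB4B. With the shorter TUBA1C transcript, TUBA1C stood at percentile 32.3 of its decile, with a difference of -0.19. These ranks are among listed genes alone, since unlisted genes have no value. The part of transcript length in the tubulin values was not tested further.

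**Figure D4:**
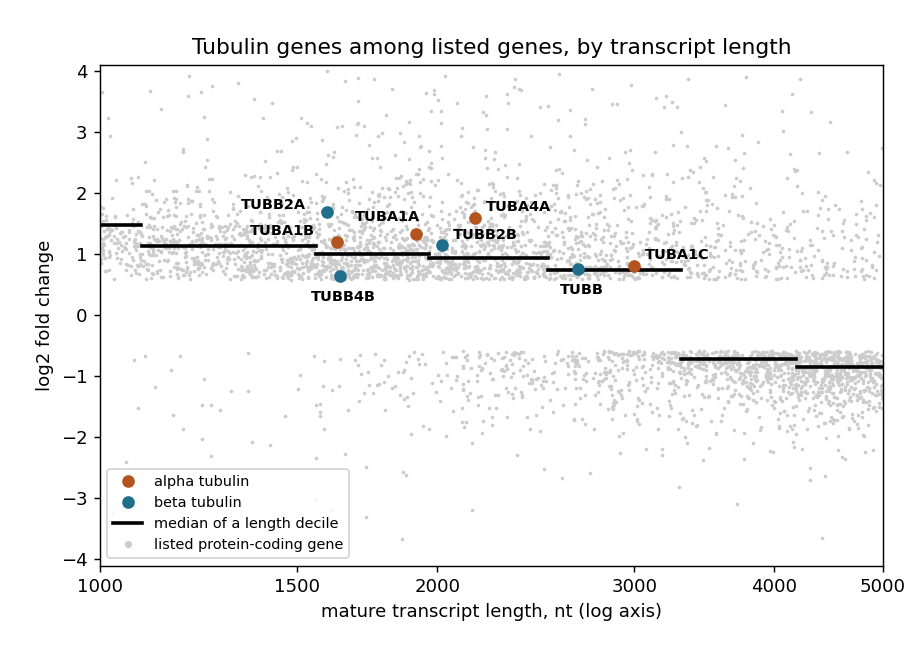
Log2 fold change (y axis) against mature transcript length (x axis, log scale) of listed protein-coding genes from 1000 to 5000 nt (grey points), with the listed alpha and beta tubulin genes in colour and the median of each length decile as a black line. TUBB2A and TUBA4A lie above the line of their decile, TUBB and TUBA1C close to it, and TUBB4B below it; genes beyond 4 on the y axis are not drawn.

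Counting is a further limit for near-identical messages. Of the 100-base windows of TUBA1B, 18.6% also occur in TUBA1C and 18.5% in TUBA1A, and 65.4% lie in AC011603.2, an antisense gene over the same locus with no row in the table. TUBA1A shared 26.6% of its windows in all, including 15.5% with TUBA1B and 15.3% with TUBA1C, a gene it overlaps on the opposite strand. TUBA1C shared 29.6% in all, including 18.6% with the antisense gene AC125611.3, which had no row. TUBB shared 5.10% with the pseudogene TUBBP1 and 17.1% with the antisense gene AL662797.1. TUBB4B shared 4.49% in all. The read length and the treatment of reads with several matches are not stated in these sources, so the values of TUBA1A, TUBA1B, TUBA1C, TUBB2A and TUBB2B are uncertain as single genes.

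The rest of the tubulin family was higher where listed. Of 12 other tubulin genes, 5 were listed, all as higher (41.7% of the list, against 25.5% of all tested genes). TUBG1 and TUBG2, the gamma tubulins that nucleate microtubules, were 1.80-fold (1.496 to 2.16) and 1.86-fold (1.46 to 2.36) higher per the authors' deposited table. TUBE1, the epsilon tubulin of centrioles, was 1.57-fold higher (1.18 to 2.10) per the authors' deposited table. TUBA8 and TUBB4A were near the floor, with mean normalized counts of 3.35 and 15.2 and log2 fold changes of 5.38 ± 2.13 and 2.14 ± 0.95 per the authors' deposited table, so their folds rest on few reads.

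Genes whose products fold tubulin were higher where listed. Newly made tubulin passes from prefoldin to the chaperonin CCT and then to the tubulin cofactors, which assemble the alpha-beta pair. Of 21 such genes 14 were listed, all higher (66.7%, against 25.5% of all tested genes), with a median log2 fold change of 1.16 per the authors' deposited table. The split was 4 of 6 prefoldin genes, 4 of 8 CCT genes and 4 of 5 cofactor genes. PFDN4, a prefoldin subunit, was 3.38-fold higher (2.70 to 4.23) and TCP1, the first CCT subunit, 2.31-fold (1.98 to 2.70) per the authors' deposited table. TBCA, which holds free beta tubulin, was 3.00-fold higher (2.37 to 3.79) and ARL2, a GTPase that works with the cofactors, 2.96-fold (2.32 to 3.77) per the authors' deposited table. VBP1, PFDN6, CCT3, CCT4, CCT5, CCT6A and TBCD had no row. With equal implied totals 8 of the 21 stayed past 1.5-fold, where 16.8% of all tested genes did. Of the 14 listed genes, 7 lay above the median of their length decile, and the 14 had a median length of 1468 nt.

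Of genes of feedback and of modification, 1 of 3 and 7 of 16 were listed, against 50.2% of all tested genes in either direction. Of TTC5, CNOT11 and SCAPER, which act in the degradation of tubulin messages, SCAPER was listed, 1.87-fold lower (1.22 to 2.87; adjusted p = 0.00758) per the authors' deposited table. TTC5 and CNOT11 had no row. Of 16 genes whose products modify tubulin, 5 were lower and 2 higher (31.2% and 12.5%, against 24.7% and 25.5% of all tested genes). TTL, the ligase that adds the terminal tyrosine back to alpha tubulin, was 2.37-fold lower (1.98 to 2.83) per the authors' deposited table. VASH1, which removes that tyrosine, was 3.67-fold lower (2.59 to 5.21), while its partner SVBP was 1.68-fold higher (1.20 to 2.35) per the authors' deposited table. TTLL4, a glutamate ligase, was 2.71-fold lower (2.08 to 3.55) and AGBL5, a deglutamylase, 1.55-fold higher (1.25 to 1.91) per the authors' deposited table. AGTPBP1, another deglutamylase of the list, went the other way from AGBL5, 1.58-fold lower (1.22 to 2.05) per the authors' deposited table. The median length of the 7 listed genes was 4967 nt, in the range where most listed genes were lower.

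More genes of microtubule-binding proteins were lower than higher. Of 26 lattice and plus-end binding genes, 13 were lower and 3 higher (50% and 11.5%, against 24.7% and 25.5%), with a median log2 fold change of -1.34 per the authors' deposited table. DST and MACF1, giant linkers between microtubules and other filaments, were 5.32-fold (4.29 to 6.59) and 4.89-fold (3.87 to 6.17) lower per the authors' deposited table. MAP1B, a lattice-binding protein best known from growing axons, was 4.45-fold lower (3.39 to 5.84), and EML4, which stabilises microtubules, 2.73-fold (2.16 to 3.46) per the authors' deposited table. The plus-end regulators CLIP1, CLASP1, CLASP2 and CKAP5 were lower, by log2 fold changes from -1.17 to -1.68 per the authors' deposited table. Those 4 were grouped after their values were seen. Their principal transcripts span 5880 to 8092 nt, in deciles where 4.50% to 11.5% of listed genes were higher. Of the plus-end genes MAPRE1, MAPRE2 and MAPRE3 in the same list, MAPRE3 was higher and the others had no row. The 3 higher genes were EML2 at 1.74-fold (1.40 to 2.16), MAPRE3 at 1.58-fold (1.17 to 2.12) and MAP1A per the authors' deposited table. MAP1A was 2.31-fold higher (1.23 to 4.33) from a low mean of 46.7 normalized counts per the authors' deposited table. The listed genes had a median length of 6817 nt, and 3 of the 16 lay above the median of their length decile.

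Genes of nucleation and of disassembly were listed in both directions, as all tested genes were. Of 21 genes of the gamma-tubulin ring, its anchors and augmin, 7 were higher and 7 lower (33.3% each, against 25.5% and 24.7%). MZT2B, a small ring subunit, and HAUS4, an augmin subunit, were 3.77-fold (2.87 to 4.97) and 3.14-fold (2.42 to 4.09) higher per the authors' deposited table. AKAP9 and PCNT, long scaffold proteins that anchor the ring, were 6.57-fold (4.47 to 9.65) and 3.09-fold (2.37 to 4.03) lower per the authors' deposited table. Length moved with direction here too: the principal transcripts of AKAP9 and PCNT are 12471 and 10560 nt long and that of MZT2B 933 nt, and 7 of the 14 listed genes lay above the median of their length decile. Of 13 destabilising and severing genes, 4 were higher and 5 lower (30.8% and 38.5%). STMN1, the stathmin that sequesters free tubulin, was 2.53-fold higher (2.13 to 3.01) and STMN3 2.35-fold (1.76 to 3.13) per the authors' deposited table. The severing enzyme gene SPAST was 2.83-fold lower (2.20 to 3.66) and KIF2A, a depolymerising kinesin, 2.13-fold lower (1.66 to 2.75) per the authors' deposited table. Among the other calls, KATNA1 was higher, and KATNAL1, FIGN and FIGNL1 were lower. Of 14 marker genes of neurons, a cell type known for TUBB3 and TUBA1A, 0 were listed, against 50.2% of all tested genes in either direction. Unlisted genes have no value in the table and may not have been tested, so this count gives no level of neuronal genes.

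**Figure D5:**
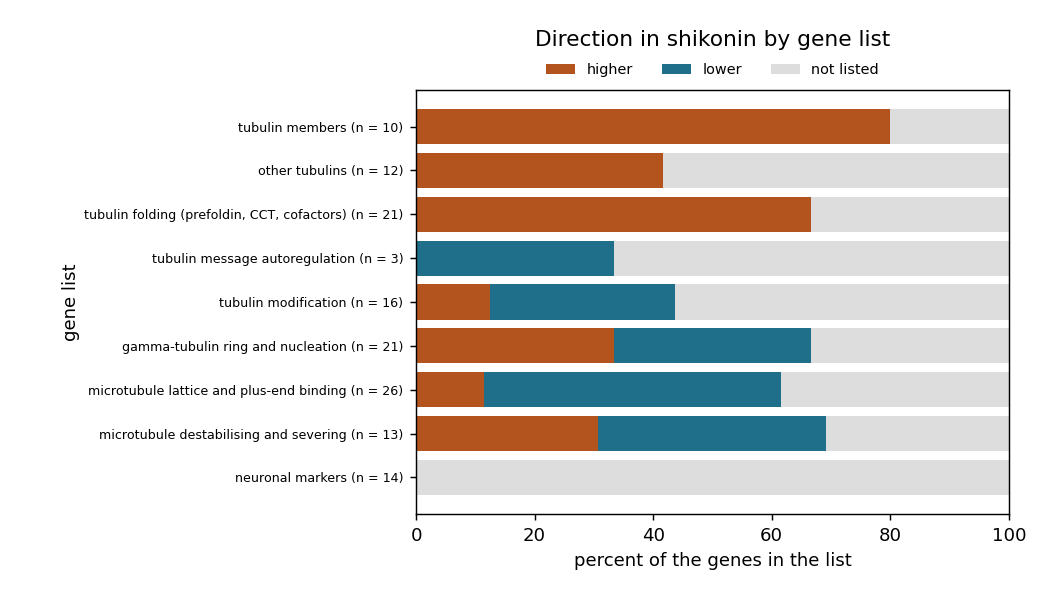
Percent of each gene list (x axis) that was listed as higher, listed as lower or not listed, for the 10 tubulin members and 8 lists of other genes. The tubulin and tubulin-folding bars hold no lower genes, and 50% of the bar of lattice and plus-end binding genes is lower.

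Promoters were examined because 8 members were listed in the same direction, as were most listed genes of similar transcript length. RefSeq start sites (GRCh38.p14) were matched for all 10 members. The windows ran from 250 bases before to 50 after each start, and a gene counted if any of its windows held the motif on either strand. A CCAAT box (CCAAT) was found in 7 of the 10 members, against 39.7% of 27305 genes, and a GC box (GGGCGG) in 8, against 48.3%. The 7 with a CCAAT box were TUBA1A, TUBA1C, TUBB, TUBB2B, TUBB4B and the unlisted TUBB3 and TUBB6. TUBB2A, TUBA4A and TUBA1B had none. The GC box was found in all members but TUBA1A and TUBB4B, so also in TUBB3 and TUBB6. TATAAA was found in TUBB2A alone, against 13.99% of genes. GAANNTTC, a facing pair of heat shock units, was found in TUBB and TUBA1C, against 8.21% of genes, and the CHOP-ATF element TGATGNAA in 0 members, against 4.46%. GAANNTTC was searched only after a longer heat shock form had matched no member, so its matches carry little weight. The antioxidant element core TGACNNNGC was found in TUBB2B and TUBB3, against 16.1%. A match describes letters only, and TUBA1C, TUBB, TUBB3 and TUBB6 have several windows, which gives them more chances of one. The 250 bases before the start are shown for the members with the largest differences, TUBB2A and TUBA4A, and for the most abundant, TUBA1B, 5′ to 3′ on the gene's strand, with matches on either strand in capitals.
TUBB2A (chr6:3157545-3157794, minus strand): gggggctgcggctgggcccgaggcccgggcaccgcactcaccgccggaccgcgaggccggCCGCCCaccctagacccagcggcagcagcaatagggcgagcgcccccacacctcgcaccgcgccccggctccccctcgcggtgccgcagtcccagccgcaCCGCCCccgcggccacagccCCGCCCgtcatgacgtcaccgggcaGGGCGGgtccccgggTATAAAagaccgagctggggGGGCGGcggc
TUBA4A (chr2:219253919-219254168, minus strand): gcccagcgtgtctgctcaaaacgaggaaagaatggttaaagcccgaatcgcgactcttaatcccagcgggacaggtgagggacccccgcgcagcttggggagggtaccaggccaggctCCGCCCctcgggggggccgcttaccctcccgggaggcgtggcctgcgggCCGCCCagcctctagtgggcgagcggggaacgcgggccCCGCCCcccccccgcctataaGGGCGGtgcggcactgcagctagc
TUBA1B (chr12:49131396-49131645, minus strand): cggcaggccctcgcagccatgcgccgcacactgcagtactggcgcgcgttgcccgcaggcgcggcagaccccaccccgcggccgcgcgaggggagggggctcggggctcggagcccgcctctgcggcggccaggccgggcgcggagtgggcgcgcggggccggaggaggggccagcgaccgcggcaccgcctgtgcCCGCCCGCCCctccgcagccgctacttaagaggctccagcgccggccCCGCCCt
TUBB2A held 5 GC boxes and the TATA box, TUBA4A 4 GC boxes, and TUBA1B 3, of which a pair overlap.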

How the data were processed

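Libraries of untreated (3) and shikonin-treated (3) MDA-MB-231 cells were made with a NEBNext Ultra RNA kit from Trizol extracts, per the labels' protocols. Tools named in the submitters' processing notes are HISAT2 2.0.5, fastp and DESeq2, with the hg38 build; the sources used here state no read counter, annotation or strand setting. The deposited mean count is a signal, size-factor normalized and averaged across libraries by the authors. Deposited log2 fold changes, with standard errors, came from the authors' DESeq2 test, as did the Wald score and the p-value with its adjusted value. The score equalled the fold change over its error, and the sign matched the authors' mark in all 7150 genes.

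From the table were computed 95% normal intervals, implied group means (equal weight of both groups), levels per kb, ranks within 10 length deciles of 6886 listed protein-coding genes, and the number of genes tested, checked on simulated data. The planned tests on values per sample could not be run. Lengths came from GENCODE 29, from the longest APPRIS principal transcript or, added after seeing the data, the transcript with the longest coding sequence. Windows of 100 bases were matched exactly against all GENCODE 29 transcripts on both strands. Python 3.11.15, pandas 2.3.3 and Biopython 1.88 were used.

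Named genes were the members, other tubulins with a row, and of each list all rows or, above 6, the 4 with the smallest adjusted p. SVBP, AGTPBP1, EML2, MAPRE3, MAP1A, CLIP1, CLASP1, CLASP2, CKAP5, KATNA1, KATNAL1, FIGN, FIGNL1, STK16 and the genes in overlaps were named after their values were seen. Members and lists were chosen with earlier results of these data known. With 1 comparison, no likeness of pattern between genes was computed. The heat shock motif GAANNTTC replaced a longer form after that form had been searched and had matched no member. Some items are not reported here.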

Additional observations from a re-analysis of the deposited data

How the results depend on the processing

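Of the 8 tubulin genes listed as higher, 8 remained at an adjusted p below 0.001 (20.5% of all tested genes were higher at that level) and 8 when the mean had to reach 100 normalized counts (19.7%). The 19.7% is a share of all tested genes, not of the genes with such a mean. The count was 5 at a fold of at least 2 (16.4% of all tested genes) and 5 with equal implied totals (16.8%). Those cutoffs lie close together on the same fold changes, so these counts are not separate checks. The count listed as lower was 0 in each setting, as it was without them (24.7% of all tested genes were listed as lower). That outcome was fixed in advance. The thresholds only take subsets of the listed genes, and the shift of 0.39 is smaller than any listed log2 fold change. The median log2 fold change of 1.18 was 0.79 with equal implied totals, 0.21 less the median of the length decile by principal transcript, and 0.21 by longest coding sequence, a setting chosen after seeing the data. TUBB4B reversed against its length decile, to -0.35 under both definitions, and TUBA1C to -0.19 under the second. By construction, these settings subtract a common shift or a decile median. With equal implied totals 3 of 8 members fell under the fold threshold. None could change sign, because the shift is smaller than the listing threshold. No paired analysis was possible because the table holds no values per library. For the same reason leaving out each replicate and the comparison of size factors were not run, and depth limits cannot be given.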

Other observations

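TUBB8B, a close copy of the beta tubulin gene TUBB8, was listed as higher at a log2 fold change of 4.28 ± 1.85 per the authors' deposited table. Its mean was 3.19 normalized counts, with an implied control mean of 0.313, so no fold is given. It was named after its values were seen, and TUBB8 had no row.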
